A study of Mus musculus with 32 samples.

Results

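The 14 mice of the study whose retinal DNA and RNA were both sequenced were compared across the 2 assays, mouse by mouse. They were chosen by the library list of the study, which gives a bisulfite library and an RNA library for mice M21 to M27 and M29 of the flight group (n = 8) and for M31 to M36 of the ground group (n = 6). Together they account for 28 of the 32 libraries analysed here, which comprise 16 bisulfite and 16 RNA libraries. All were female C57 BL/6J mice, 21 weeks old by their labels. Flight mice lived in enclosure modules for animals aboard the International Space Station for 37 days and were killed and frozen on orbit, while ground habitat controls were kept on Earth in the same kind of housing. Retinas were dissected after the flight mice had returned, and each library came from 1 retina of 1 mouse. The comparison asked whether the overall state of the methylome in a dissected retina went with the amount of RNA from eye tissues that border the retina and can be carried over with it.

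Methylation of cytosines in CpG dinucleotides is copied at cell division by Dnmt1 and differs between cell types, most of all at enhancers and at starts of genes that are poor in CpGs. In a uniform population of cells most CpGs are close to fully methylated or fully unmethylated. A sample that mixes cell types holds more CpGs at intermediate values, since each cell type brings its own pattern. Reduced representation bisulfite sequencing (RRBS) reads CpGs near MspI cutting sites, which favours CpG-rich starts of genes. The lens is packed with crystallins, the retinal pigment epithelium (RPE) recycles the visual chromophore for photoreceptors, melanocytes of the choroid and iris make melanin, fibroblasts build the sclera, and the cornea is covered by an epithelium rich in keratins. Cryaa (a crystallin of the lens), Krt5 (a keratin of basal epithelia), Tyrp1 (an enzyme of melanin synthesis) and Dcn (decorin, a proteoglycan of fibroblasts) stood for these tissues. In such bulk samples fewer cells of a type and less RNA per cell cannot be told apart.

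The retinal identity of the RNA was plain, since Prph2 (peripherin-2 of photoreceptor discs) lay between 705.5 FPKM in M22 and 1415 FPKM in M24 and thus far above 0 in every mouse. The label of 1 sample was contradictory. M21 is a flight mouse by both DNA labels and by the source of its RNA, while the condition given for its RNA reads ground control, and it was counted as flight. For ground mice other than M31 the library list and the sample titles give different mouse numbers for the RNA, and the list was followed. Under it the DNA and RNA of M32 (left and right) and of M33 (right and left) carry different eye labels, whereas they match by the titles. By the paper, both came from the same retina. The joining by titles was therefore also used for the relations with marker genes, the gene fits, the CpG fits on markers and the promoter fit. That joining also pairs a further ground mouse, so its set of mice is not the same. Group differences, values within groups or eyes, relations with depth and counts of outlying CpGs were computed with the list alone. The number of reads on CpG cytosines ran from 59572205 to 105298542 per library in the 14 mice. At least 10 reads in every one of the 16 bisulfite libraries, those outside the 14 mice included, were found at 1045775 autosomal CpGs. The median depth at those CpGs was 39 (M36) to 70 (M32) reads.

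CpGs of a few genes that are described further on are shown first, chosen because M31 lay beyond all other mice there. All sequences are from the NCBI assembly GRCm38.p6, 30 bases long on the strand of the gene, with the CpG in capitals. In Cryab, which encodes a small heat shock protein abundant in the lens, mean promoter methylation was lowest in the 2 mice with the most lens RNA. The CpGs lie behind a start of the gene on chromosome 9, the first 2 in the untranslated part of an exon and the last 2 in its coding part.
Cryab +245 bp, chr9:50753202-50753231 (plus strand): catatataaggggcCGgctggagctgctgc
Cryab +282 bp, chr9:50753239-50753268 (plus strand): gttgaccagccaacCGactctgcattcatc
Cryab +314 bp, chr9:50753271-50753300 (plus strand): gccacaatggacatCGccatccaccacccc
Cryab +336 bp, chr9:50753293-50753322 (plus strand): accacccctggatcCGgcgccccttcttcc
In Gstm1, which encodes a glutathione transferase, the 2 CpGs shown lie upstream of the start on chromosome 3.
Gstm1 -534 bp, chr3:108018493-108018522 (minus strand): tagattcataaacaCGgccaaaatacagat
Gstm1 -576 bp, chr3:108018535-108018564 (minus strand): ttccctcaaacttcCGgcccctctgtggtt
In Prph2, which encodes a membrane protein of photoreceptor discs, the 3 CpGs shown lie in the coding part of the exon that holds the start, on chromosome 17, and they were more methylated in M31 than in the other mice.
Prph2 +686 bp, chr17:46911150-46911179 (plus strand): atgaaaaagaccatCGacatgctccagatt
Prph2 +725 bp, chr17:46911189-46911218 (plus strand): tgctgtgggaacaaCGgcttccgggactgg
Prph2 +732 bp, chr17:46911196-46911225 (plus strand): ggaacaacggcttcCGggactggttcgaga

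M31, M22 and M23 had a methylome with more intermediate CpGs than the rest. The mean methylation over the shared autosomal CpGs ran from 35.98% (M22) over a median of 36.48% to 36.70% in the 8 flight mice, and from 35.89% (M31) over 36.52% to 36.61% in the 6 ground mice. The share of CpGs between 20% and 80% ran from 11.30% over a median of 11.46% to 12.23% (M22) in flight mice. In ground mice it ran from 11.16% over 11.50% to 12.78% (M31). M31 (12.78%), M22 (12.23%) and M23 (12.05%) lay above the 11.67% of the next mouse, M27, and the same mice had the lowest means (35.89%, 35.98% and 36.17%). Their excess of intermediate CpGs came with fewer CpGs above 80%, at 29.96% in M31, 30.46% in M22 and 30.61% in M23. The share under 20% differed little between mice, at 56.99% to 57.33%. Mean and share thus moved in opposite directions across the 14 mice (Pearson's r = -0.957, permutation p = 1e-05, the smallest that 100000 permutations can give). By rank the relation was looser (Spearman's ρ = -0.697, permutation p = 0.00701).

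The 3 leading components of the methylome each set 1 mouse apart. Component 1 held 14.72% of the variance and had M31 at a score of 5182, with the other 13 mice between -876 and 923. Component 2 (11.04%) had M23 at 4627, with M22 next at 393. Component 3 (8.83%) had M21 at -4122, with the next lowest mouse at -12.7. With M31 left out, the leading component was M23 again (4655) and the next was M21 (-4124).

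**Figure D1:**
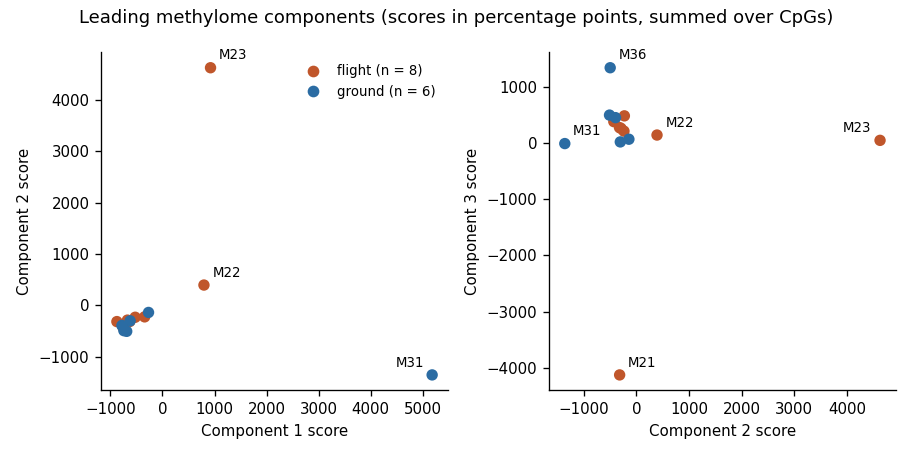
Scores of the 14 matched mice on methylome components 1 and 2 (left) and 2 and 3 (right), in percentage points summed over the shared autosomal CpGs; each point is 1 mouse, coloured by group. M31 stands alone at 5182 on component 1, M23 at 4627 on component 2 and M21 at -4122 on component 3, with the remaining mice close together.

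The RNA of bordering tissues was also concentrated in a few mice, and not in the same one for each tissue. Cryaa ran from 0.107 FPKM over a median of 19.8 to 9594 FPKM (M22) in flight mice and from 1.82 over 172 to 15011 FPKM (M31) in ground mice. M31 and M22 stood far above M35, which was next and had 532 FPKM. The 18 lens genes together made 59473 FPKM in M31 and 43707 in M22 against 51.7 to 2247 in the others, and M31 and M22 were the highest 2 mice for 18 of 18 of these genes. Krt5 ran from 0 over 8.26 to 580 FPKM (M21) in flight mice and from 0.187 over 6.21 to 23.3 FPKM (M32) in ground mice. The 12 corneal and basal epithelium genes summed to 2229 FPKM in M21 and 495 in M22, against 8.71 to 145 in the others, and M21 was highest for 10 of the 12. Krt12, the keratin that defines the corneal epithelium, was an exception, with its highest value in M34 (39.5 FPKM) and 2.10 FPKM in M21.

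Pigmented and connective tissue RNA was spread over more mice. Tyrp1 ran from 11.8 over a median of 40.6 to 115 FPKM in flight mice and from 20.4 over 44.4 to 244 FPKM in ground mice. It was highest in M31 (244 FPKM), M32 (125), M22 (115) and M23 (110), and no other mouse exceeded 54.5 FPKM. Dcn ran from 11.3 over 30.4 to 123 FPKM (M22) in flight mice and from 14.3 over 44.9 to 177 FPKM (M31) in ground mice. M32 followed with 96.8 FPKM and the other mice lay at or below 57.9 FPKM. Tyrp1 and Dcn moved together across the mice (r = 0.943, permutation p = 1e-05), whereas Cryaa and Krt5 did not pass the test (r = 0.296, permutation p = 0.304). Each of the 10 melanocyte genes was highest in M31.

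The RPE genes picked out M31 and M23. Their sum was 8593 FPKM in M31 and 5845 in M23, against 943 (M22) to 3308 in the other 12 mice. Rpe65, the isomerase of the visual cycle, was 572 FPKM in M31 and 400 FPKM in M23 against 52.4 to 236 FPKM in the others. Lrat, which esterifies retinol, was 131 and 99.5 FPKM against 10.1 to 56.5 FPKM. Rgr, an opsin of RPE and Müller glia, was 1884 and 1478 FPKM against 190 to 824 FPKM. M31 and M23 were the top pair for 9 of the 10 RPE genes, and Best1 (0.802 FPKM in M31 and 0.325 FPKM in M23) was the exception. M22, which had lens RNA close to that of M31, had the lowest RPE sum of all. M31, M22 and M23, the mice with the most intermediate CpGs, thus differed in lens and RPE RNA, but all 3 were high in pigment cell and smooth muscle RNA, as was M32. The melanocyte sum was 1143 FPKM in M31, 733 in M32, 601 in M22 and 549 in M23 against 99.7 to 357 FPKM in the others, and the smooth muscle sum was 267, 160, 132 and 118 FPKM against 12.9 to 44.9 FPKM.

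**Figure D2:**
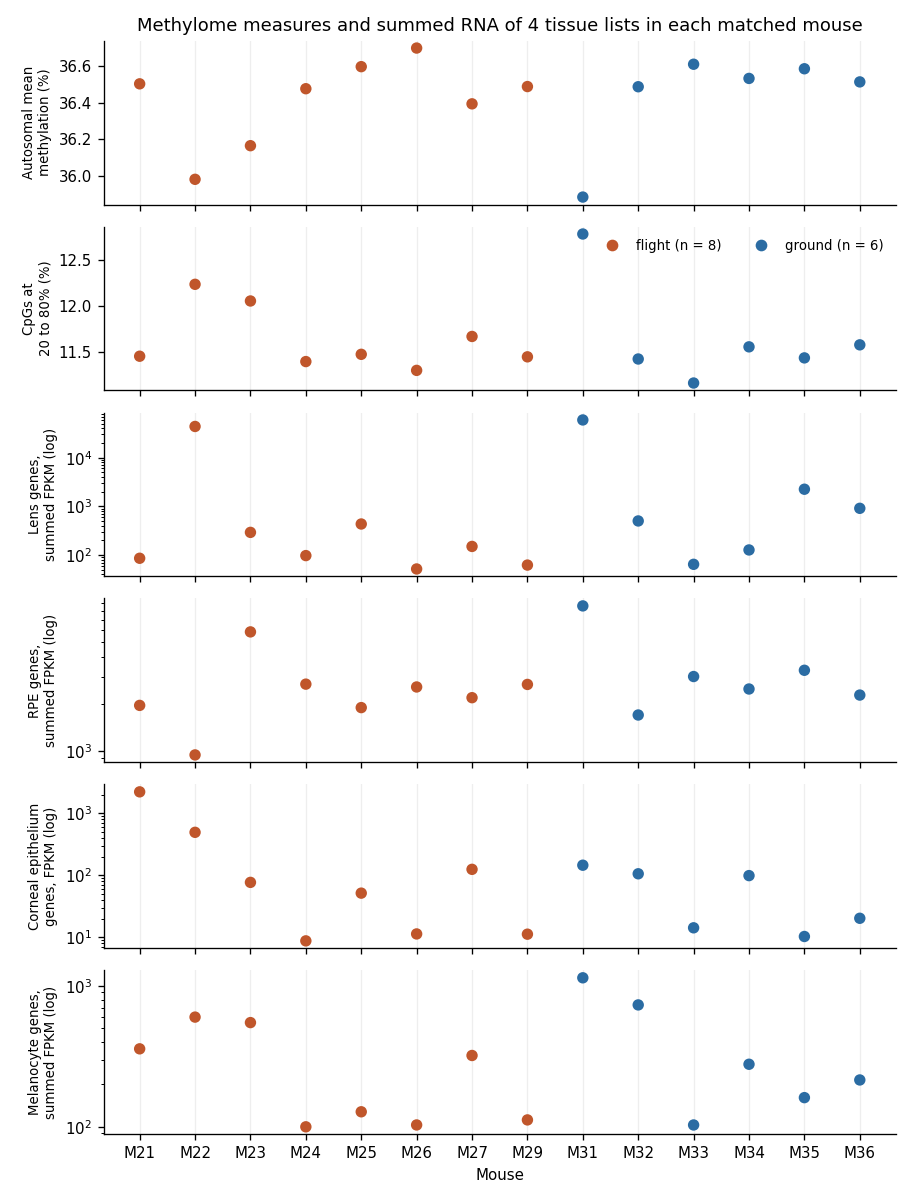
Mean methylation and share of CpGs at 20 to 80% (both in percent of the shared autosomal CpGs) and the summed FPKM of lens, RPE, corneal and basal epithelium and melanocyte genes (log axes) in each of the 14 mice, coloured by group; each point is 1 library. M31, M22 and M23 are lowest in the first panel and highest in the second. M31 and M22 lead the lens genes, M31 and M23 the RPE genes, and M21 the sum of corneal and basal epithelium genes, though not Krt12.

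Methylome measures followed Cryaa, Tyrp1 and Dcn across the 14 mice. Of the 16 relations between 4 measures (mean, share, component 1 and component 2) and 4 markers on the log2(FPKM + 0.1) scale, 9 passed a permutation test of Pearson's r after Benjamini-Hochberg adjustment. These were the relations of the mean, the share and component 1 with Cryaa, Tyrp1 and Dcn. The share rose with Tyrp1 (r = 0.799, adjusted permutation p = 0.00229; Spearman's ρ = 0.723, adjusted p = 0.04), with Dcn (r = 0.761, adjusted p = 0.00396; ρ = 0.741, adjusted p = 0.04) and with Cryaa (r = 0.746, adjusted p = 0.00509; ρ = 0.626, adjusted p = 0.049). The mean fell with Tyrp1 (r = -0.787, adjusted p = 0.00229; ρ = -0.657, adjusted p = 0.0419), Dcn (r = -0.763, adjusted p = 0.00445; ρ = -0.657, adjusted p = 0.0419) and Cryaa (r = -0.701, adjusted p = 0.0111), though the ranks for Cryaa did not pass (ρ = -0.464, adjusted p = 0.155). Component 1 rose with Tyrp1 (r = 0.719, adjusted p = 0.00229; ρ = 0.684, adjusted p = 0.0419), Dcn (r = 0.661, adjusted p = 0.00537; ρ = 0.618, adjusted p = 0.049) and Cryaa (r = 0.63, adjusted p = 0.0124), the last again not by rank (ρ = 0.345, adjusted p = 0.304). Krt5 passed with no measure, at r = -0.423 with the mean (adjusted p = 0.211; ρ = -0.433, adjusted p = 0.18) and r = 0.381 with the share (adjusted p = 0.262; ρ = 0.538, adjusted p = 0.101). No relation of component 2 passed, with r from -0.051 to 0.218 and ρ from -0.138 to 0.257.

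These relations rested to a large part on M31. Without M31 none of the 16 passed, and the strongest were the share and the mean against Tyrp1 (r = 0.705 and r = -0.679, both adjusted permutation p = 0.0524). After leaving out the 2 mice farthest from the median of each marker, 3 remained, all with Tyrp1, whose farthest mice were M24 and M31: the mean (r = -0.757, adjusted p = 0.0114), the share (r = 0.72, adjusted p = 0.0301) and component 1 (r = 0.764, adjusted p = 0.0114). For Cryaa and Dcn the farthest mice were M22 and M31. Without them, r of the share was 0.365 with Cryaa and 0.465 with Dcn (ρ = 0.587, permutation p = 0.0506 before adjustment), and neither passed. Different mice were thus removed for Tyrp1 than for Cryaa and Dcn. With M22 and M31 removed for every marker none of the 16 relations passed, those with Tyrp1 included (share r = 0.637 and mean r = -0.612, both adjusted permutation p = 0.212).

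Within groups and among mice with DNA from a right eye the relation with Tyrp1 kept its direction. Among the 8 flight mice, which leave out M31, r of the share with Tyrp1 was 0.885 (exact permutation p = 0.000769) and ρ was 0.952 (exact p = 0.00114). Among the 6 ground mice r was 0.801 (exact permutation p = 0.0403), while ρ was 0.6 (exact p = 0.242). The 9 mice whose DNA came from a right eye hold M23 but not M31, M22 or M21, and gave r = 0.869 (exact permutation p = 0.00223). M33 is among them, and its RNA carries a left eye label. The 5 mice with DNA from a left eye were M21, M22, M29, M31 and M32, too few for a relation of their own. Thus 3 of the 4 mice with an outlying methylome or marker level had left eyes. Among right DNA eyes r of the share with Cryaa was 0.441 (exact permutation p = 0.234) and with Dcn 0.701 (exact permutation p = 0.0261; ρ = 0.817, exact p = 0.0108).

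**Figure D3:**
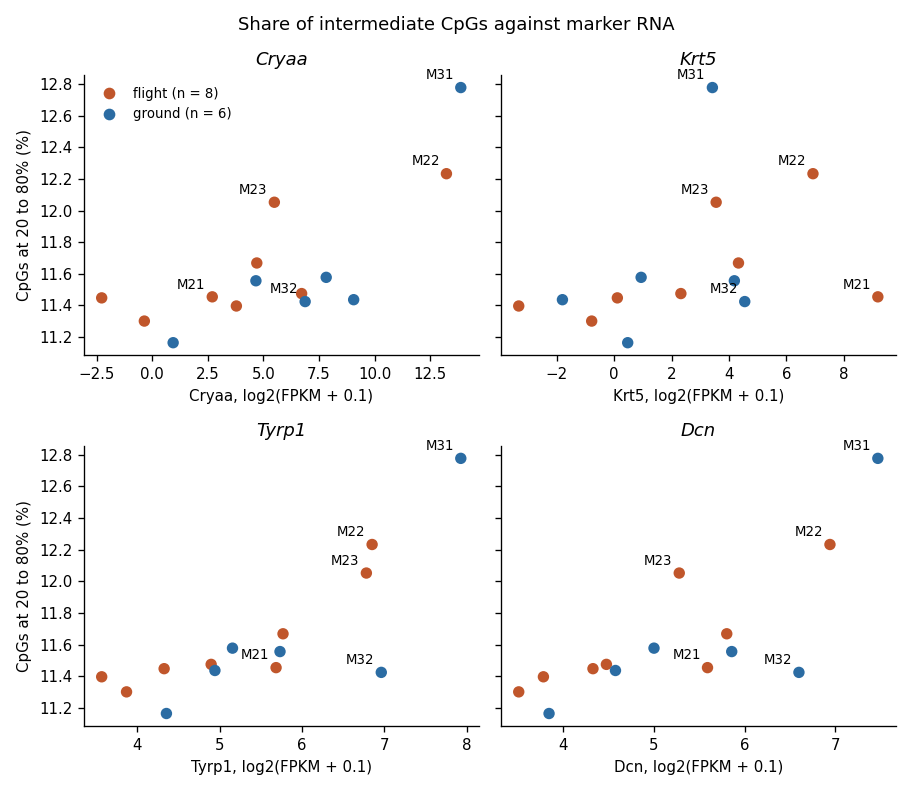
Share of autosomal CpGs at 20 to 80% (percent) against log2(FPKM + 0.1) of Cryaa, Krt5, Tyrp1 and Dcn; each point is 1 of the 14 mice, coloured by group. M31 and M22 lie at the upper right for Cryaa, Tyrp1 and Dcn, while M21, highest for Krt5, has an ordinary share of 11.45%.

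Depth and coverage were set beside the measures. M23 had the fewest CpGs with at least 10 reads (1145105) and M32 the most (1605078). Next lowest after M23 were M31 (1281663), M21 (1294755) and M22 (1344740), followed by M36 (1394008). The mice with an outlying methylome or marker level thus also had the lowest numbers of such CpGs. The share fell with that number (r = -0.637, permutation p = 0.0189, and ρ = -0.675, permutation p = 0.0101). The mean rose with it (r = 0.625, permutation p = 0.019, and ρ = 0.512, permutation p = 0.0644). None passed adjustment over 16 such relations (adjusted p = 0.152 for both r, and 0.162 and 0.389 for ρ). The number of reads on CpG cytosines showed no such relation with the share (r = -0.0422, permutation p = 0.873). Short RNA genes took 28.96% of all FPKM in M22 and up to 72.0% in another mouse, and r of that percentage with the share was -0.474 (adjusted permutation p = 0.234). The part of coverage and of RNA composition in the relations with tissue markers was not tested.

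No difference between flight and ground mice in the 8 values passed an exact permutation test over all divisions of the mice into 8 and 6 (smallest possible p = 0.000333, adjusted p from 0.767 to 0.922). Mean methylation was 36.41% ± 0.233 (SD, n = 8) in flight and 36.44% ± 0.273 (SD, n = 6) in ground mice (exact permutation p = 0.868). The share was 11.63% ± 0.337 (SD, n = 8) and 11.66% ± 0.569 (SD, n = 6; exact permutation p = 0.922). On the log2(FPKM + 0.1) scale flight minus ground was -2.96 for Cryaa (exact permutation p = 0.252), 0.83 for Krt5 (exact permutation p = 0.669), -0.63 for Tyrp1 (exact permutation p = 0.381) and -0.59 for Dcn (exact permutation p = 0.383).

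The whole transcriptome was next fitted against each measure, with group as a covariate, in the 14326 genes with a mean of at least 1 FPKM. With the share, 2111 genes rose (14.7%) and 1633 fell (11.4%) at an adjusted p of 0.05 or under by limma. With the mean, 1493 genes rose (10.4%) and 2106 fell (14.7%), and 3290 genes were called with both measures, all in opposite directions. With component 1, 2171 rose (15.2%) and 1743 fell (12.2%). Centring each library on its median gave 1938 higher (13.5%) and 2043 lower (14.3%) with the share. Without M31 the counts dropped to 399 with the share (382 higher, 2.67% of the genes, and 17 lower, 0.119%; 394 of them among the 3744 called before) and 622 with the mean (611 of the 3599). Without M22 and M31 they were 0 and 6. In all mice joined by titles, 2775 genes followed the share (1644 higher and 1131 lower) by limma, of 14323 tested. With the mean, 3046 did (1245 higher and 1801 lower). Component 1 computed without M31 is another axis, led by M23, and 33 genes followed it. With component 2, which is mostly M23, 0 genes passed by limma and 209 had an unadjusted p under 0.05. The genes nearest to passing were Ly6c1 (-0.31 log2 per SD), Phkg2 (-0.20) and Mir568 (3.37), each with an adjusted p of 1.

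Lens genes had the steepest slopes. All 18 rose with the share by limma, with a median slope of 7.33 on the log2 scale per percentage point, beside -0.02 for all genes tested, and 16 of 18 were still called without M31. M31 and M22 were also the 2 mice with the highest share, and without both none of the 18 was called, although all 18 still passed the filter. Cryab was 5119 FPKM in M31, 2740 in M22 and 46.1 to 232 FPKM in the other mice, a slope of 4.27 ± 0.581 (SE, adjusted p = 0.000238). Bfsp2, a beaded filament protein of lens fibres, was 251 FPKM in M31 and 233 in M22 against 0.496 to 10.5 in the others. Lim2, a membrane protein of lens fibres, was higher in M22 (256 FPKM) than in M31 (189 FPKM), with 8.06 FPKM or less elsewhere. These genes separate the same 2 mice from all the others.

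Melanocyte, fibroblast, smooth muscle and microglia genes rose as well. With the share, 10 of 10 melanocyte genes were called higher (median slope 1.66), 9 of the 13 fibroblast genes that passed the filter (2.17), 3 of 4 smooth muscle genes (2.55) and 8 of 8 microglia genes (1.25), beside 14.7% of all genes. Without M31 these counts were 3 of 9, 4 of 12, 3 of 4 and 0 of 8, beside 2.67% of all genes. Tyr, the first enzyme of melanin synthesis, was 41.9 FPKM in M31, 26.3 in M23 and 17.7 in M22 against 7.72 to 14.99 FPKM in the others (slope 1.40 ± 0.172 SE, limma adjusted p = 0.000127). Mitf, the transcription factor of pigment cells, was 18.2 FPKM in M31 and 9.47 in M23. Ogn (osteoglycin, a proteoglycan of connective tissue) was 100.5, 57.3 and 22.4 FPKM in M31, M22 and M23 against 4.88 to 16.3 FPKM, and rose by 2.77 ± 0.24 (SE, limma adjusted p = 4e-05). Acta2 (smooth muscle actin) was 184 FPKM in M31, with M22 (92.6) and M32 (92.3) next. C1qa, a complement gene of microglia and macrophages, was 17.03 FPKM in M31, 10.02 in M32 and 8.50 in M22.

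RPE and epithelial genes did not follow the share as groups. None of the 9 RPE genes that passed the filter was called with the share, and their median slope of 0.52 became -0.49 without M31. With component 1, on which M31 stands apart, 3 of 9 were called higher by limma (beside 15.2% of all genes), namely Stra6, a vitamin A transporter (0.36 log2 per SD, adjusted p = 0.0329), Rrh, an opsin of the RPE (0.32, adjusted p = 0.0342), and Ttr, a carrier of retinol binding protein (0.48, adjusted p = 0.0456). Of 12 corneal genes, 1 rose with the share (beside 14.7% of all genes), Aldh3a1, a corneal crystallin and aldehyde dehydrogenase (3.35 ± 1.17 SE, limma adjusted p = 0.0477), and it lost the call without M31. None of 10 suprabasal epidermis, 7 skeletal muscle, 3 myelin and 1 blood genes that passed the filter was called with the share. In endothelium 1 of 8 was, near the share of all genes, namely Egfl7 (0.96 ± 0.319 SE, limma adjusted p = 0.0384), again not without M31.

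Some cone and bipolar cell genes fell with the share. Of 7 cone genes 4 were lower, and of 7 bipolar cell genes 4 were lower and 1 higher, with median slopes of -0.59 and -0.38, beside 11.4% of all genes called lower. Of 12 rod genes 1 was lower (median slope -0.36), no more than that share. After centring on the library median 3 rod and 5 cone genes were lower, beside 14.3% of all genes, and without M31 none of these lists held a call. Nr2e3, the transcription factor that sets rod identity, was lowest in M31 (150 FPKM) and M22 (181), with the others between 188 and 296 FPKM. Grm6, the glutamate receptor of ON bipolar cells, was 10.7 FPKM in M31 and 21.6 to 31.6 FPKM in all other mice. Trpm1, the channel of ON bipolar cells that melanocytes also express, went the other way and was highest in M32 (150 FPKM), M31 (148), M22 (136) and M23 (123), the mice with the most Tyrp1. Of 6 Müller glia genes 1 rose (beside 14.7% of all genes), Dkk3 (1.04 ± 0.123 SE, limma adjusted p = 0.000102), which was 511 FPKM in M31 and 406 in M22 against 145 to 248 FPKM and was still called without M31.

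Of 8 genes of the methylation machinery that passed the filter, 1 was lower with the share, close to the 11.4% of all genes called lower. Dnmt3a, a de novo methyltransferase, was 12.81 FPKM in M22 and 12.85 FPKM in M31 and 14.8 to 18.2 FPKM in the other 12 mice, a slope of -0.25 ± 0.0741 (SE, limma adjusted p = 0.0225) that lost its call without M31. With component 1, Dnmt3a and Tet3, a dioxygenase of methylated cytosine, were lower, beside 12.2% of all genes.

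**Figure D4:**
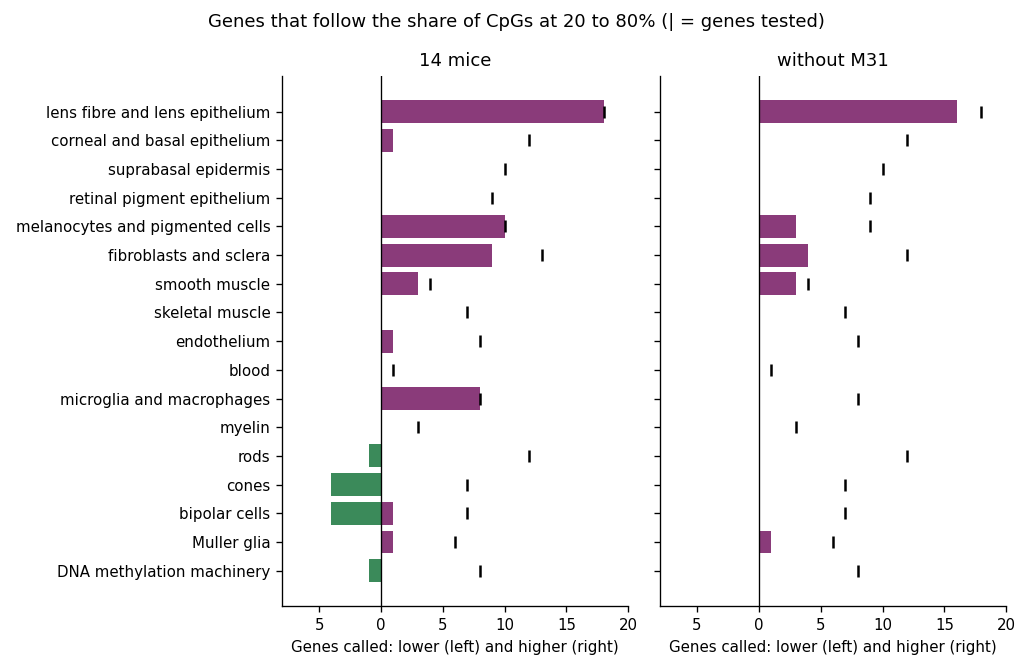
Number of genes of each list called higher (right of 0) or lower (left of 0) with the share of CpGs at 20 to 80% by limma, in 14 mice (left panel) and without M31 (right panel); vertical ticks mark the genes tested. Lens genes are called in 18 of 18 and then 16 of 18, microglia genes in 8 of 8 and then 0 of 8, and RPE genes in 0 of 9 in both.

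Genes of various kinds outside the lists were among those with the smallest p. With the share, Pvrl3 (nectin-3, an adhesion protein) rose most clearly, at 75.7 FPKM in M31, 46.7 in M22, 27.2 in M23 and 7.68 to 16.2 FPKM in the other 11 mice (2.06 ± 0.168 SE, limma adjusted p = 4e-05, and adjusted p = 0.00532 without M31). Rarres2, the chemoattractant chemerin, had the same order, at 100 FPKM in M31, 55.3 in M22, 30.4 in M23 and 7.08 to 20.01 FPKM elsewhere. Sdc2 (syndecan-2), Cnn3 (calponin-3) and Ntrk2 (the receptor of brain-derived neurotrophic factor) were likewise highest in M31, M22 and M23, in that order, and kept their calls without M31, as did Nedd9, Pgcp and Bambi. With the mean, Gas1, Prelp, Bmp7, Man1c1 and Dkk3 were among the 10 that fell with the smallest p. Gas1, a membrane protein of hedgehog signalling, was 49.4 FPKM in M31, 38.7 in M22, 22.5 in M23 and 11.02 to 19.04 FPKM in the others. For these genes the 3 mice with the lowest mean methylation were the 3 highest, without overlap. Choosing genes by their p with the mean favours such a pattern. With component 1, Phgdh, the first enzyme of serine synthesis, rose most clearly (0.59 ± 0.0431 SE, limma adjusted p = 2.09e-05), at 56.6 FPKM in M31, 23.6 in M23, 18.1 in M22 and 10.9 to 15.4 FPKM elsewhere. Cald1 (caldesmon) and Chi3l1 (a secreted chitinase-like protein) followed.

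Genes that fell were low above all in M31. Gsg1, known from germ cells, was 10.4 FPKM in M31, 21.5 in M22, 23.3 in M23 and 25.5 to 36.6 FPKM in the others, a slope with the share of -0.999 ± 0.124 (SE, limma adjusted p = 0.000133, and adjusted p = 0.062 without M31). Cplx3, a complexin of ribbon synapses, was 52.8, 77.7 and 80.3 FPKM in these mice against 92.2 to 116 FPKM. Both genes kept the order of the share, M31 lowest, then M22, then M23, and both were chosen by their p with the share, which favours that order. Peli3, Rrp1b, Prmt8, Ap3b2, Brsk2 and Bin1 were also among the 10 with the smallest p. With component 1, Gfra4, a receptor of the GDNF family, was listed at 0 in M31 and at 1.04 to 2.51 FPKM in the others, and Dhh, desert hedgehog, was 0.616 FPKM in M31 and 3.23 to 6.51 FPKM in the others. Slc12a5, the chloride exporter of neurons, was 40.5 FPKM in M31 and 67.5 to 99.1 FPKM elsewhere.

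No single CpG followed a marker. Among 1071432 CpGs (the X chromosome included) 0 passed for Cryaa, Krt5, Tyrp1 or Dcn (0% each) in a logistic fit with overdispersion, and 0 (0%) for flight against ground. An unadjusted p under 0.05 was found at 48974 CpGs for Cryaa (4.57%), 39530 for Krt5 (3.69%), 57938 for Tyrp1 (5.41%), 52892 for Dcn (4.94%) and 38911 for group. At that level more CpGs were lower than higher with Tyrp1 (35564 and 22374), Dcn (33864 and 19028) and Cryaa (30826 and 18148), and about as many with Krt5 (20066 and 19464). With no allowance for overdispersion 4772, 733, 6703, 5321 and 870 CpGs passed, in the same order. With the joining by titles 0 passed for each of the markers. The CpG with the smallest p for Tyrp1 and for Dcn, not passing at adjusted p of 0.814 and 0.861, lay in an intron of Rai14 at chr15:10760103-10760104. It was 52.3% methylated in M31, 66.9% in M22, 73.9% in M32 and 75.0% in M23, and up to 88.2% in the others. For Cryaa it lay in an intron of Stox2 at chr8:47392503-47392504 (adjusted p = 0.913), with 49.0% in M31, 53.3% in M22 and 68.1% to 93.5% in the others. Both CpGs were chosen by their p for the marker, which favours low values in the mice rich in it.

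The starts of the marker genes themselves gave little to read. Within 1000 bp of an annotated start, Cryaa had 2 shared CpGs, Krt5 8, Tyrp1 0 and Dcn 0. The 2 Cryaa CpGs were 81.8% and 96.3% methylated in M31, within the ranges of 72.0% to 96.3% and 86.7% to 100% over the mice. At Krt5, M31 and not M21 was low, with 21.4% at -992 bp against 77.8% to 96.7% in the others, and 42.9% at -989 bp against 77.8% to 93.6%. M21, with the most Krt5 RNA, was at 85.7% and 78.6% there. These CpGs had 10 to 55 reads.

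Cryab was the only gene whose promoter methylation went with its own RNA past the threshold. Of 11615 genes with at least 5 shared CpGs within 1000 bp of a start, 1 passed (0.00861%) in a linear regression with group, and 817 had an unadjusted p under 0.05. Slopes were negative for 6122 of the 11615. The mean of the 24 Cryab CpGs was 34.45% in M31, 37.63% in M22 and 40.86% (M23) to 44.34% (M34) in the others, and its RNA fell by 7.77 on the log2 scale per 10 points (slope -7.77 ± 0.913 SE, partial r = -0.932, n = 14, adjusted p = 0.042 by linear regression across all genes with Benjamini-Hochberg adjustment). M31 and M22 were lowest in methylation and highest in RNA, apart from the other 12 mice in both. Without M31 the slope was -9.15 ± 1.57 and without both mice -3.70 ± 1.52. No gene passed without M31, nor with a window of 200 bp, nor with the joining by titles. The CpGs lie around several annotated starts of Cryab, and each distance is from the nearest. The window also takes in CpGs next to the start of the neighbouring gene 2310030G06Rik.

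M31 was below all other mice at 9 of the 24 Cryab CpGs, the 4 printed above and 5 others. At +245 bp methylation was 9.46% in M31 and 21.0% in M22, with the others between 15.9% and 37.7%. At +282 bp it was 33.3% and 42.2% against 49.0% to 69.5%, and at +314 bp 48.5% and 61.4% against 70.5% to 87.9%. At +336 bp it was 57.6% and 76.6% against 68.9% to 86.1%. Of these 4, M22 was below the other 12 at +282 and +314 bp and within their range at +245 and +336 bp. The others included a CpG 352 bp upstream of another annotated start of Cryab, at chr9:50750973-50750974, with 54.5% in M31 against 68.9% to 83.7%. From the start of the printed CpGs they included +122 bp, with 8.59% against 11.7% to 21.7%, and +173 bp, with 24.5% against 26.8% to 47.4%.

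**Figure D5:**
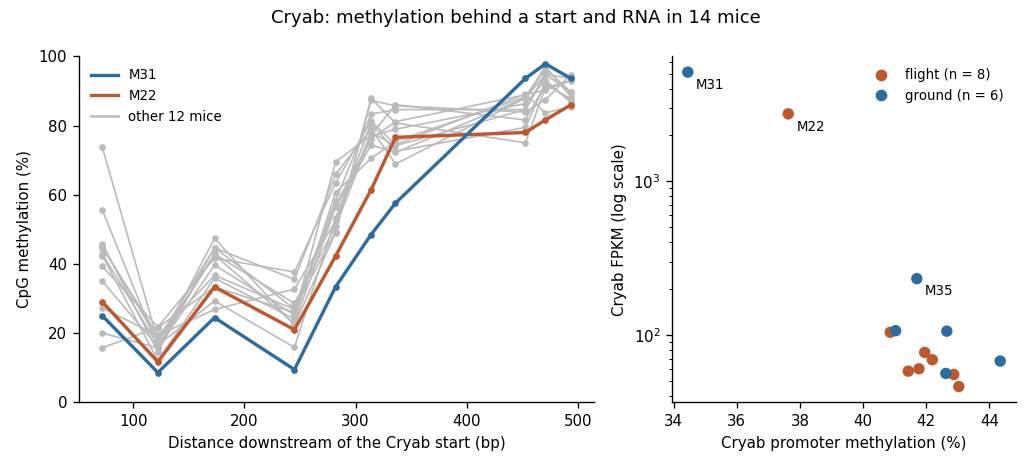
Left, methylation (percent) of single CpGs by distance in bp downstream of the Cryab start at which the printed sequences lie, with M31 and M22 as thick lines and the other 12 mice in grey. Right, mean methylation of all 24 Cryab promoter CpGs (percent) against Cryab FPKM (log axis), each point 1 mouse; M31 (34.45%, 5119 FPKM) and M22 (37.63%, 2740 FPKM) lie apart from the rest.

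Gstm1 was among the next 9 genes by p, none of which passed (adjusted p = 0.147 for each). Its window was 7.46% in M31, 9.08% in M21, 10.3% in M22, 14.8% in M23 and 16.2% to 20.03% in the others, and its RNA 290.5 FPKM in M31, 189 in M22 and 19.03 to 53.4 FPKM in the others (slope -2.54 ± 0.441 SE). The CpG at -534 bp was 3.45% in M31 against 17.4% to 43.5%, and that at -576 bp was 8.33% against 31.3% to 64.3%. M21, second lowest in methylation, had 52.3 FPKM, below the 53.4 FPKM of M23. Others were 3110070M22Rik (42.4% to 69.8% over the mice, a slope of -0.668 ± 0.101 SE), Parp3, Shd, Npr2, Ick, Txndc11 and Chchd4, among which Txndc11 alone had a positive slope (5.01 ± 0.865 SE). Across genes within a mouse, promoters with more methylation had less RNA, with ρ from -0.318 (M31) to -0.367 (M26) over 14514 genes, which share promoters and are not replicates.

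M31 also held the most CpGs that no other mouse matched. CpGs at least 10 points below all other 13 mice numbered 11014 in M31 (1.05% of the shared autosomal CpGs), 5861 in M23, 2349 in M21, 2162 in M22, 1856 in M36 and 430 in M24, the fewest. CpGs as far above numbered 3260, 2389, 1543, 531, 1468 and 300 in the same mice. The lower ones outnumbered the higher ones in 11 of the 14 mice, and the higher ones the lower in the other 3, M25, M26 and M35. They were shallower than the rest, with a median of 31 reads against 54 over all CpGs in M31 and of 18 against 51 in M23, and what part of them is counting error was not tested. Promoters held 12.97% of the lower and 28.96% of the higher ones in M31, against 53.17% of all shared CpGs. This was not particular to M31. Over the 14 mice promoters held 9.54% (M24) to 14.06% (M32) of the lower and 25.86% (M26) to 40.68% (M35) of the higher ones. At the 11014 CpGs that were low in M31 (50.7% against 76.7% in the others), M22 was 2.79 points below the remaining mice, M23 0.996 and M32 0.579 points below. M22 was also below at the sets that were low in other mice, by 0.595 to 1.79 points. M32 was below at such sets too (-0.0241 to -0.851 points), so its value at the M31 set was within its usual range. M23 lay between -0.658 and 1.22 points there.

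Starts of photoreceptor genes differed in M31 in both directions. The Prph2 window was 32.3% in M31 against 10.4% to 16.8% in the others, with 10 of its 20 CpGs beyond all other mice by at least 10 points. The CpGs printed above were at 53.2% (+686 bp), 55.2% (+725 bp) and 59.5% (+732 bp) in M31, against 10.6% to 23.2%, 8.70% to 24.7% and 5.88% to 30% in the others. M31 was also highest at Sag, rod arrestin (55.4% against 27.9% to 49.4%, 3 CpGs), and at Nr2e3 (60.3% against 41.9% to 53.3%, 6 CpGs). M22 was next to M31 at Prph2 (16.8%) and lay within the range of the other mice at Sag and Nr2e3. M31 lay within the range of the others at Pde6b, Rom1 and Nrl, further genes of rods. Of the 3 cone genes with shared CpGs M31 was highest at Gnat2 (4.24% against 1.91% to 3.84%) and lowest at Pde6h (1 CpG) and Pde6c (82.4% against 86.9% to 93.3%). The Prph2 RNA of M31, 895 FPKM, lay within the 705.5 to 1415 FPKM of the others.

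Starts of RPE and Müller glia genes did not go 1 way. Of the 3 RPE genes with shared CpGs M31 was lowest at Rdh5, highest at Lrat (3.31% against 1.20% to 3.02%) and within the range of the others at Stra6, and M23, also rich in RPE RNA, was lowest at none. Rlbp1, a retinoid carrier of RPE and Müller glia, was 21.4% in M23, 22.4% in M22 and 27.7% in M31, below the 28.1% to 36.8% of the other 11, while its RNA was 416 FPKM in M31 and 363 in M23 but only 131 in M22. Rdh5, an RPE dehydrogenase, was 9.61% in M31 against 16.5% to 29.2% at 3 CpGs, and its RNA was 265 FPKM in M31 and 223 in M23 against 31.2 to 108 FPKM. The Dkk3 window was 3.19% in M31 against 4.99% to 9.38%. Rgs20, a regulator of G protein signalling, had 11 of 52 CpGs outlying in M31, where its window was 33.4% against 47.0% to 53.4% and its RNA 18.1 FPKM against 19.2 to 34.6 FPKM.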

How the data were processed

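RRBS and RNA libraries were made by the authors from 1 retina each. Per the submitters' processing notes, reads were handled with bcl2fastq 1.8.4 and Trim Galore 0.4.5; the authors removed PCR duplicates by random tags, aligned to GRCm38 with Bismark and deposited, per cytosine, a read count with the percent methylated and unmethylated (methylKit format). For RNA the authors deposited FPKM from Trimmomatic, TopHat2 and Cuffdiff, which carry no read counts, so the depth behind each value is unknown.

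From the deposited files, methylated read counts were rebuilt from count and percent, and both strands of a CpG were summed. CpGs with at least 10 reads in all 16 bisulfite libraries were kept. Components came from centred autosomal percentages. FPKM were used as log2(FPKM + 0.1). The 24 entries without a gene symbol (4.24% to 11.3% of FPKM) and 2 further FPKM columns were not used. Relations were tested with 100000 permutations (exact within groups), genes with limma 3.58.1 (R 4.3.3; mean of at least 1 FPKM, group term), CpGs by logistic regression with overdispersion, and promoters by linear regression, all with Benjamini-Hochberg adjustment at 0.05. Promoters lie within 1000 bp of a RefSeq start, with 21979 of 26584 symbols matched as given and 2514 by synonym. Python 3.11.15, numpy 2.4.6, pandas 2.3.3, scipy 1.17.1, numba 0.67.0 and matplotlib 3.10.9 were used. Each fit was tested on simulated data. Slopes are per 1 percentage point of the share, 0.1 point of the mean or 1 SD of a component.

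The members, the 17 gene lists and the tests were chosen with earlier results of these data known. Named were the 4 markers, the 10 genes per direction with the smallest p in each fit, up to 4 called genes per list, the promoters of the smallest p, and, where nothing passed, the features nearest to passing; genes described by how far 1 mouse stood from the others, and the RPE genes by mouse, were chosen after their values were seen, as were the CpGs whose sequences are printed. The p-values measure the spread between these mice, each with 1 library per assay, and replicate numbers pair no mice across groups. Alternatives were another depth minimum, pseudocount, filter and scaling, leaving out each mouse, M21 as ground or left out, and the joining by titles; leaving out M22 and M31 together was added after the data were seen. A few features that these rules also name are not reported here.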

Additional observations from a re-analysis of the deposited data

Results flagged for a closer look

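The values examined were each measure, component and marker, the Cryab promoter, and ρ of promoter methylation and RNA across genes. Within flight or ground mice they made 22 sets. In 8 of the sets a mouse had a gap to its neighbour that exceeded the 95% limit of Dixon's test. Chance alone exceeds that limit in about 1 of 20 groups. That rate is no yardstick for this count, since leading components tend to set single mice apart, the Cryab promoter was named for its extreme mice, and mean and share are strongly related. Of these, 5 were M31 in the ground group, with the lowest mean methylation (35.89%, next 36.49%), the highest share of CpGs at 20 to 80% (12.78%, next 11.58%), the highest component 1 score (5182, next -268), the lowest component 2 score (-1358, next -509) and the lowest Cryab promoter methylation (34.45%, next 41.03%). In the flight group they were M23 on component 2 (4627, next 393), M21 on component 3 (-4122, next 44.7) and M22 for Cryab promoter methylation (37.63%, next 40.86%). M31 and M22 had the most lens RNA, M31 and M23 the most RPE RNA and M21 the most RNA of corneal and basal epithelium; the part of these tissues in the methylome of each mouse was not tested.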

How the results depend on the processing

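Of 216 settings for single relations and group differences (leaving out single mice apart), 191 kept direction and side of the threshold, 15 lost the call and 10 had the other sign; of 87 settings for counts, 71 stayed within 1.5 times. Of 16 relations, 9 passed, 3 without the 2 farthest mice and 0 without M22 and M31 (0 to 10 on leaving out each mouse, 0 without M31). The relation of component 2 (led by M23) with Cryaa became 0.0998 without the 2 farthest mice and 0.0711 with group means removed, and that with Dcn 0.136 and 0.0638. Components were recomputed when mice were left out; without M31, or M22 and M31, component 2 was led by M21, an axis of arbitrary sign, so its values are not the same relation: 0.236 with Cryaa, -0.645 with Krt5 and -0.157 with Tyrp1 (without M22 and M31). On leaving out each mouse r of component 2 ranged from -0.0876 to 0.208 (Cryaa), -0.587 to 0.207 (Krt5; -0.587, adjusted permutation p = 0.0498, without M23), -0.131 to 0.244 (Tyrp1) and -0.146 to 0.00213 (Dcn). Flight minus ground ranged from -0.133 to 0.0389 (mean), -0.126 to 0.197 (share), -854 to 867 and -763 to 1040 (components 1 and 2) and -0.0844 to 1.7 (Krt5); with M21 as ground it was 0.0263 for the share and -1.12 for Krt5, and without M21 -0.0844 for Krt5.
Gene counts ranged from 622 to 4372 (mean), 399 to 4544 (share), 33 to 4602 (component 1, led by M23 without M31) and 0 to 54 (component 2) on leaving out each mouse, each lowest without M31 except for component 2, which had 54 without M31 and 40 without M23. Without M22 and M31 they were 6, 0, 99 and 534; component 2 had 28 with no filter and 1 with a pseudocount of 1. With overdispersion set to 1, 4772, 733, 6703, 5321 and 870 CpGs passed for Cryaa, Krt5, Tyrp1, Dcn and group. The promoter count of 1 became 0 at 200 bp, by titles and without M31. The causes were not tested. Replicate numbers name the mice within a group only. Depth per CpG limits single CpGs, and the FPKM files give no depth.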

Other observations

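With M22 and M31 left out, 534 genes followed component 2 by limma, 51 higher and 483 lower, and that component was M21 at -4111. That setting was chosen after the data were seen, and a component led by 1 mouse compares that mouse with the rest.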
